A study of Homo sapiens with 2 samples.

Results

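Glutathione transferases are the enzymes that join the tripeptide glutathione to reactive chemicals, and 9 genes of the group were followed here through single cells of the HepaRG line. They were taken by symbol from the 36601 genes counted and comprise the alpha forms GSTA1, GSTA2 and GSTA4, the pi form GSTP1, the kappa form GSTK1, the omega form GSTO1 and the microsomal forms MGST1, MGST2 and MGST3. HepaRG is an established human liver line derived from a hepatocellular carcinoma, supplied as a differentiated culture and used in toxicology in place of primary hepatocytes. The study exposed such cultures to chemicals that provoke stress responses, and the 2 libraries analysed here hold cells that received the vehicle alone, 0.1% DMSO for 24 h after 7 days in culture. Both titles name the vehicle and differ in replicate number, but both samples carry the same biological replicate number, so p-values here reflect only how far these 2 libraries differ, and that spread may be technical.

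A transferase holds glutathione as a reactive thiolate and offers it to an electrophile. The conjugate is then pumped out of the cell and trimmed to a mercapturic acid. The soluble enzymes are dimers that fall into classes by sequence. Alpha forms are abundant in adult human hepatocytes, whereas the pi form is known from bile duct cells and from many tumours. The kappa form lives in mitochondria and peroxisomes. The microsomal forms belong to a separate family of membrane proteins. The comparison made here asks which classes are carried by cells rich in albumin transcripts and which by the rest of the culture.

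Cells were sorted by computation into 3 tiers according to ALB, the albumin gene, which is no member of the group. ALB-high cells had at least 50 ALB UMIs per 10000 UMIs, ALB-intermediate cells had 5 to 50, and the remaining cells are called other cells. A UMI is a counted RNA molecule. Library 1 held 306 ALB-high, 424 ALB-intermediate and 3724 other cells, and library 2 held 407, 493 and 3994. The libraries held 85020832 and 57025178 UMIs in the cells kept and shared 7 cell barcodes among them. Below, paired values give library 1 and then library 2, and levels are UMIs per 1000000 UMIs of the summed cells (CPM). The kit counts transcript ends, so levels were not divided by length.

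The tiers followed other hepatocyte markers than the gene that defined them. The summed level of 16 such markers without ALB was 13549 and 12937 CPM in ALB-high cells, 3064 and 3142 CPM in ALB-intermediate cells, and 601 and 664 CPM in other cells. Of the 15 markers tested, 15 rose in ALB-high against other cells, where 32.1% of all genes rose. In ALB-intermediate against other cells 13 rose and 2 were not called, where 23.6% of all genes rose. Markers of proliferation summed to 818 and 769 CPM in ALB-high cells, 1502 and 1375 CPM in ALB-intermediate cells, and 2095 and 2119 CPM in other cells. Mesenchymal markers summed to 59.5 and 70.5 CPM in ALB-high cells, 115 and 133 CPM in ALB-intermediate cells, and 262 and 275 CPM in other cells, with 3 and 2 of the 12 genes at 0 in the ALB-high cells. The median mitochondrial share of UMIs was 13.5% and 13.6% in ALB-high cells, 11.1% and 11.7% in ALB-intermediate cells, and 8.43% and 8.61% in other cells. The part of these differences in the transferase results was tested only by leaving clusters or cells out, as given below.

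The genes of GSTA1 and GSTA2 lie on the minus strand of chromosome 6 in GRCh38, at 52791664 to 52803910 and at 52750089 to 52763569. Their upstream sequences are shown because these 2 genes had the largest fold changes of the members between tiers. The 250 bases before each RefSeq start are chr6:52803817-52804066 for GSTA1 and chr6:52763476-52763725 for GSTA2 (RefSeq promoter table, GRCh38.p14, written 5′ to 3′ on the minus strand). Capitals mark the 7 bases at which the windows differ, and the other 243 bases are the same.
GSTA1: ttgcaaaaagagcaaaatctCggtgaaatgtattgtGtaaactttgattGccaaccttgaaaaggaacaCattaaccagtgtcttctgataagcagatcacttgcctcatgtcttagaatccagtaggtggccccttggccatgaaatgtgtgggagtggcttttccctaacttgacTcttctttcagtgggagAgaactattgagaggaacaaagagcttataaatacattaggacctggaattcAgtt
GSTA2: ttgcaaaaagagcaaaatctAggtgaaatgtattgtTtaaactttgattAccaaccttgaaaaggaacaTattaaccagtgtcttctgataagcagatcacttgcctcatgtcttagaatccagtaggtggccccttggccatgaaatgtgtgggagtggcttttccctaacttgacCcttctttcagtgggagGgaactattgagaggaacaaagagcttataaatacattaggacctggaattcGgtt
Both windows hold the letters TATAAA on the sense strand, with the first base 30 bases before the start. These letters occur, on either strand, in 10.7% of 35116 promoter windows of the same length. Each of the 2 windows holds 1 CpG dinucleotide, against a median of 11 over all windows, and neither holds the core letters of the antioxidant response element, TGACNNNGC, which 10.9% of windows hold. The window of GSTP1 holds 28 CpG dinucleotides and 1 match to the core letters. The window of the alpha form GSTA4 also holds 1 match, and that of GSTO1 holds 2. A match to letters is a description of the sequence and no evidence of binding.

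GSTA1, a main alpha transferase of adult liver, was the member with the most UMIs in ALB-high cells. It stood at 2918 and 2770 CPM in ALB-high cells, 877 and 944 CPM in ALB-intermediate cells, and 107 and 125 CPM in other cells. The tiers did not overlap, and libraries within a tier differed far less than the tiers did. In edgeR's quasi-likelihood test, with the library as a block, GSTA1 rose by 4.79 on the log2 scale (SE 0.05, adjusted p = 1.2e-39) in ALB-high against other cells. It rose by 3.05 (SE 0.05, adjusted p = 2.9e-33) in ALB-intermediate against other cells and by 1.74 (SE 0.04, adjusted p = 7.8e-27) in ALB-high against ALB-intermediate cells. With the clusters rich in proliferation or mesenchymal markers left out of every tier, the first of these was 4.36, and with cells above 15% mitochondrial UMIs left out it was 4.76. In library 1 alone, without a test, the first was 4.86, and in library 2 alone it was 4.58, a wider gap than the SE. Both single-library values are differences of log2 CPM outside the fit.

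GSTA2, a close paralog of GSTA1, had a steeper gradient at a far lower count. It stood at 151 and 137 CPM in ALB-high cells, 25.8 and 28.0 CPM in ALB-intermediate cells, and 2.74 and 2.97 CPM in other cells. Its log2 fold change was 5.84 (SE 0.08, adjusted p = 1.3e-36) in ALB-high against other cells and 2.54 (SE 0.08, adjusted p = 2.1e-24) in ALB-high against ALB-intermediate cells. In ALB-intermediate against other cells it was 3.31 (SE 0.12, adjusted p = 1.2e-22).

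The balance of both paralogs moved with the tier. GSTA2 made up 4.94% (exact 95% interval 4.65 to 5.23) of the GSTA1 and GSTA2 UMIs in ALB-high cells of library 1, and 4.72% (4.40 to 5.05) in library 2. In ALB-intermediate cells the shares were 2.85% (2.5 to 3.25) and 2.88% (2.48 to 3.33). In other cells they were 2.51% (2.17 to 2.89) and 2.32% (1.94 to 2.74). The ALB-high intervals lay above those of both further tiers in each library, while the intervals of ALB-intermediate and other cells overlapped. These intervals cover counting error only. Reads that match more than 1 gene could be missing from these counts: of the 371 words of 30 bases in the last 400 bases of the GSTA1 transcript, 165 also occur in GSTA2, GSTA3, GSTA5 or the pseudogene GSTA11P, and for GSTA2 this held for 33 words. At a word length of 90 bases there were 0 such words for any of the 9 genes.

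GSTA4, an alpha form known for its action on aldehydes from lipid peroxidation, showed little of this gradient. It stood at 9.92 and 7.48 CPM in ALB-high cells, 8.24 and 9.02 CPM in ALB-intermediate cells, and 6.43 and 6.60 CPM in other cells. Only 70 and 43 UMIs lay behind the ALB-high values, and the 2 ALB-high libraries spanned both ALB-intermediate values. The log2 fold change was 0.60 (SE 0.17, adjusted p = 0.0019) in ALB-high against other cells and 0.47 (SE 0.16, adjusted p = 0.013) in ALB-intermediate against other cells. Neither call held with DESeq2 (adjusted p = 0.072 and 0.24) or with cells thinned to 4000 UMIs (adjusted p = 0.30 and 0.093). As differences of log2 CPM outside the fit, the first fold change was 0.29 without library 1 and 0.71 without library 2.

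**Figure D1:**
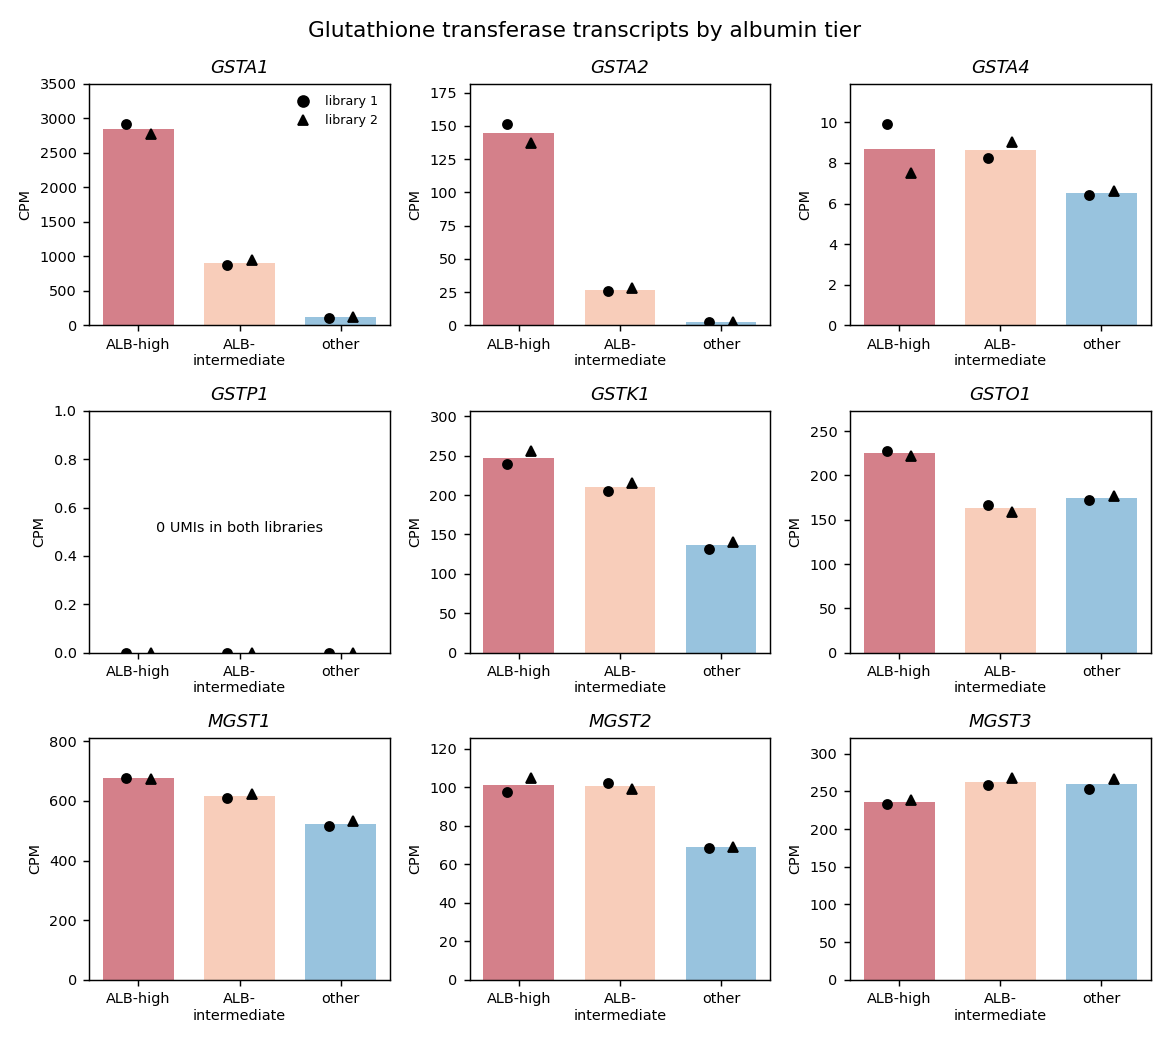
Level of each of the 9 transferases in CPM (linear axes from 0, with a scale of its own per gene) in ALB-high, ALB-intermediate and other cells. Bars give the mean of 2 libraries, circles library 1 and triangles library 2. GSTA1 and GSTA2 fall steeply across the tiers, GSTP1 is at 0 throughout, and MGST3 is nearly level.

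GSTP1, the pi form, had 0 UMIs in both libraries, over all 9589 barcodes and 142721964 UMIs deposited. An exchange of alpha for pi forms between the tiers therefore could not be measured: alpha forms made up 100% of alpha plus pi UMIs in each tier of each library. By counting error alone, a count of 0 allows up to 3 UMIs, or 0.425 and 0.522 CPM in ALB-high cells, 0.343 and 0.467 CPM in ALB-intermediate cells, and 0.0433 and 0.0669 CPM in other cells. In sets of broadly used genes, 0 of 73 ribosomal protein genes and 0 of 37 genes of respiratory complex I were at 0. Of 39 proteasome genes, 0 were at 0. The lowest gene of each set had 44443, 6003 and 2 UMIs. Among the marker genes some counts were near 0: APOA2 had 1 and 3 UMIs in ALB-high cells, where APOA1 had 1475 and 1206. UBE2C had 12 and 14 UMIs in other cells, where TOP2A had 34727 and 22400. Of 4 genes near GSTP1 on chromosome 11, CDK2AP2 and NDUFV1 had 5194 and 16370 UMIs, and CABP2 and C11orf72 had 1 and 4. Of all 36601 genes, 6094 were at 0. The reads were not analysed here, so a transcript missing from the cells and a transcript missing from the count cannot be told apart.

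GSTK1, the kappa form of mitochondria and peroxisomes, rose in both tiers with albumin. It stood at 239 and 256 CPM in ALB-high cells, 206 and 215 CPM in ALB-intermediate cells, and 132 and 140 CPM in other cells. The tiers did not overlap. The log2 fold change was 1.03 (SE 0.05, adjusted p = 2.7e-20) in ALB-high against other cells and 0.70 (SE 0.05, adjusted p = 4.9e-15) in ALB-intermediate against other cells. Between ALB-high and ALB-intermediate cells it was 0.33 (SE 0.05, adjusted p = 1.9e-06).

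GSTO1, the omega form, which reduces dehydroascorbate and arsenic compounds, was higher in ALB-high cells than in either further tier. It stood at 227 and 222 CPM in ALB-high cells, 167 and 159 CPM in ALB-intermediate cells, and 173 and 177 CPM in other cells. The log2 fold change was 0.53 (SE 0.05, adjusted p = 4.8e-12) in ALB-high against other cells and 0.56 (SE 0.05, adjusted p = 9.3e-11) in ALB-high against ALB-intermediate cells. In ALB-intermediate against other cells it was -0.03 (SE 0.05, adjusted p = 0.64).

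MGST1, a microsomal form of the endoplasmic reticulum and the outer mitochondrial membrane, was the member with the most UMIs in other cells. It stood at 676 and 675 CPM in ALB-high cells, 610 and 624 CPM in ALB-intermediate cells, and 514 and 533 CPM in other cells. Its log2 fold change was 0.53 (SE 0.04, adjusted p = 1.8e-14) in ALB-high against other cells, 0.30 (SE 0.04, adjusted p = 3.0e-08) in ALB-intermediate against other cells and 0.23 (SE 0.04, adjusted p = 2.0e-05) in ALB-high against ALB-intermediate cells. In GENCODE 29 the span of MGST1 overlaps 2 other annotated genes on its own strand, so reads there are uncertain.

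MGST2, which can make the cysteinyl leukotriene that joins glutathione to an arachidonate product, rose in both tiers with albumin. It stood at 97.2 and 105 CPM in ALB-high cells, 102 and 98.9 CPM in ALB-intermediate cells, and 68.5 and 68.9 CPM in other cells. The log2 fold change was 0.72 (SE 0.05, adjusted p = 3.0e-14) in ALB-high against other cells and 0.62 (SE 0.05, adjusted p = 9.6e-13) in ALB-intermediate against other cells. Between ALB-high and ALB-intermediate cells it was 0.09 (SE 0.06, adjusted p = 0.25), and the values of the 2 tiers overlapped.

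MGST3, the remaining microsomal form, passed no test between tiers. It stood at 234 and 239 CPM in ALB-high cells, 258 and 267 CPM in ALB-intermediate cells, and 253 and 267 CPM in other cells. The log2 fold change was 0.03 (SE 0.05, adjusted p = 0.61) in ALB-high against other cells. This sign depended on the scaling. Fold changes are scaled by edgeR's trimmed mean (TMM), and with library totals alone the log2 values of all genes shifted by a median of -0.17 in this comparison. On that scale MGST3 was at -0.14 (adjusted p = 0.0082), while the 7 members called higher kept their direction and their calls.

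Of the 8 members tested, 7 rose and 0 fell in ALB-high against other cells. Over all 15814 genes tested, 32.1% rose in this comparison and 30.2% fell. The median log2 fold change was 0.66 over the 8 members and 0.01 over all genes. In ALB-intermediate against other cells 6 members rose and 0 fell, against 23.6% of all genes that rose. In ALB-high against ALB-intermediate cells 5 rose and 0 fell, against 16.5% of all genes that rose. Either way, 62.4% of all genes were called in ALB-high against other cells, 45.7% in ALB-intermediate against other cells and 31.5% in ALB-high against ALB-intermediate cells. On the scale of library totals 3718 genes were called higher and 6500 lower in ALB-high against other cells, in place of 5083 and 4779 with TMM. In ALB-high against ALB-intermediate cells these counts were 1971 and 3677, in place of 2617 and 2366.

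The make-up of the group turned over from microsomal to alpha forms with albumin. Alpha forms made up 66.9% ± 1.10 of the UMIs of the 9 members in ALB-high cells, 41.1% ± 0.996 in ALB-intermediate cells and 9.70% ± 0.698 in other cells (SD, n = 2 libraries each). Microsomal forms made up 22.6% ± 0.681 in ALB-high cells, 42.6% ± 0.577 in ALB-intermediate cells and 66.2% ± 0.505 in other cells. The kappa and omega forms together took 10.5% ± 0.418 in ALB-high cells, 16.2% ± 0.418 in ALB-intermediate cells and 24.1% ± 0.193 in other cells. No tier overlapped another in any of these shares. The members' UMIs summed to 4553 and 4411 CPM in ALB-high cells, 2254 and 2345 CPM in ALB-intermediate cells, and 1256 and 1320 CPM in other cells. The level of MGST1 was nevertheless higher in ALB-high cells than in both further tiers. This make-up was examined after GSTP1 had been seen at 0.

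**Figure D2:**
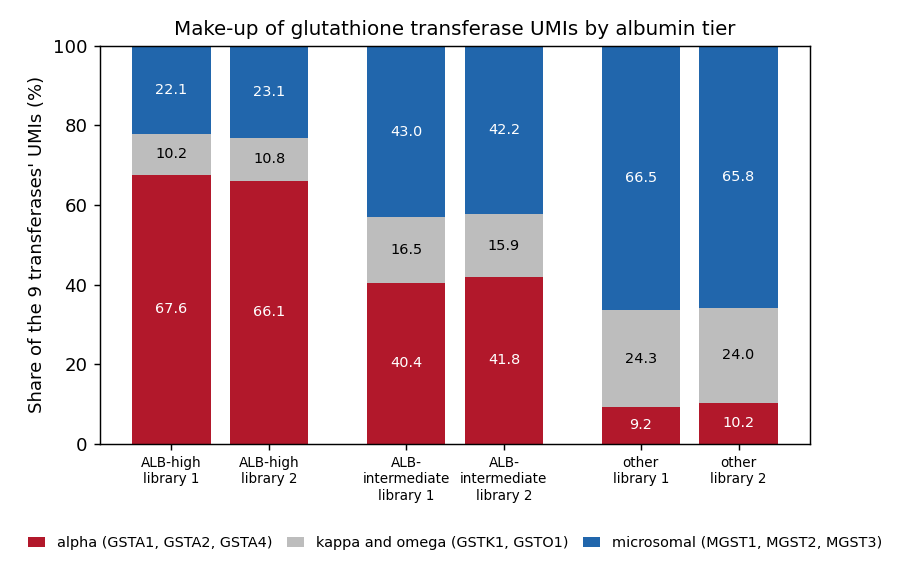
Share of the UMIs of the 9 transferases (vertical axis, percent) taken by alpha, kappa plus omega, and microsomal forms, for each tier and library. The alpha share is 67.6% and 66.1% in ALB-high cells, 40.4% and 41.8% in ALB-intermediate cells, and 9.2% and 10.2% in other cells; GSTP1 adds 0.

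Across finer steps of albumin, GSTA1 climbed over the whole lower range and then levelled off. It stood at 87.7 and 102 CPM in the 1771 and 2286 cells without an ALB UMI, and at 176 and 165 CPM in cells with 1 to 5 ALB UMIs per 10000. From 5 to 10 it was 380 and 461 CPM, from 25 to 50 it was 1416 and 1364 CPM, and from 200 to 400 it was 3755 and 3492 CPM. In the 32 and 32 cells at 400 or more it was 3541 and 2649 CPM. The last step was lower than the one before in both libraries, on few cells. GSTA2 was at 3.89 and 10.3 CPM in the step of 5 to 10 and at 197 and 189 CPM at 200 to 400. In the last step it was at 320 and 136 CPM, and the libraries parted.

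The other members moved at different points of the albumin range. GSTK1 was at 140 and 148 CPM in the step of 1 to 5 and at 219 and 210 CPM in that of 10 to 25. GSTO1 stayed between 151 and 184 CPM in every step up to 100 and then reached 208 and 224, 291 and 270, and 323 and 321 CPM in the last 3 steps. MGST3 was between 225 and 273 CPM in every step up to 200 and was at 212 and 154 CPM in the last. MGST1 was highest in the last step, at 868 and 780 CPM. Near the tier limits, 65 and 98 cells had an ALB level within 20% of the upper limit and 83 and 91 within 20% of the lower.

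**Figure D3:**
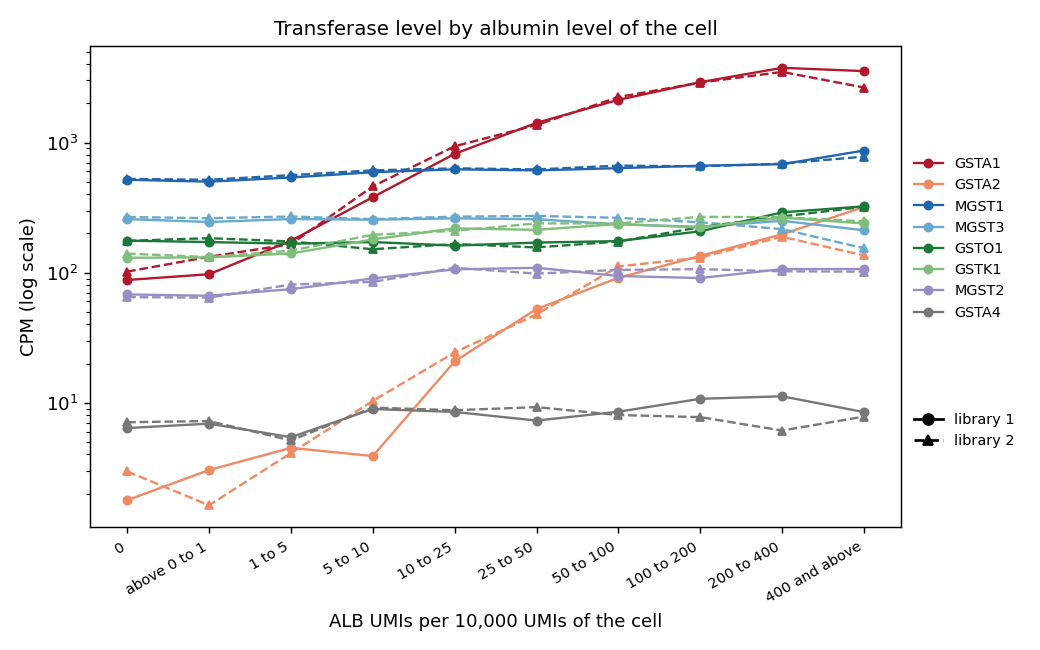
Level of 8 transferases (vertical axis, CPM on a log scale) in cells grouped by ALB UMIs per 10000 UMIs (horizontal axis, low to high). Circles with solid lines are library 1 and triangles with dashed lines library 2. GSTA1 overtakes MGST1 between the steps of 5 to 10 and 10 to 25, and GSTO1 turns up only above 100.

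To compare single cells at equal depth, each was thinned to 4000 UMIs. This left out the shallower cells, 1 and 5 of them ALB-high, 15 and 16 ALB-intermediate and 48 and 62 other cells. GSTA1 then had a UMI in 98.4% and 97.8% of ALB-high cells, 79.0% and 83.4% of ALB-intermediate cells, and 25.6% and 27.8% of other cells. Before thinning the shares were 99.7% and 99.3%, 93.2% and 91.5%, and 54.5% and 46.4%. The median was 10 and 10 UMIs in ALB-high cells, 2 and 3 in ALB-intermediate cells, and 0 and 0 in other cells. At least 20 UMIs were found in 17.7% and 17.4% of ALB-high cells, 0.489% and 1.26% of ALB-intermediate cells, and 0% and 0.0509% of other cells. The variance of GSTA1 over its mean was 6.40 and 5.92 among ALB-high cells, while for MGST1 it was 1.22 and 1.02 in the same cells. This measure depends on the mean, which was higher for GSTA1 than for MGST1, so the spread of both genes is not compared.

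MGST1 was found in most cells of every tier, with a UMI in 91.8% and 93.0% of ALB-high, 88.8% and 89.3% of ALB-intermediate, and 85.6% and 85.8% of other cells. GSTA1 outnumbered MGST1 in 85.9% and 87.3% of ALB-high cells, 45.5% and 49.1% of ALB-intermediate cells, and 6.83% and 7.53% of other cells. GSTA2 was found together with GSTA1 in 35.4% and 33.6% of ALB-high cells, and 0 ALB-high cells had a GSTA2 UMI without a GSTA1 UMI. Only 1.64% and 2.24% of ALB-high cells lacked a GSTA1 UMI, so this count of 0 says little. Across ALB-high cells the correlation of thinned counts was 0.37 and 0.29 (Pearson) between GSTA1 and GSTA2, 0.18 and 0.18 between GSTA1 and ALB, and 0.08 and 0.02 between GSTA1 and MGST1. These correlations are over 305 and 402 cells that share a library and are given as a description.

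**Figure D4:**
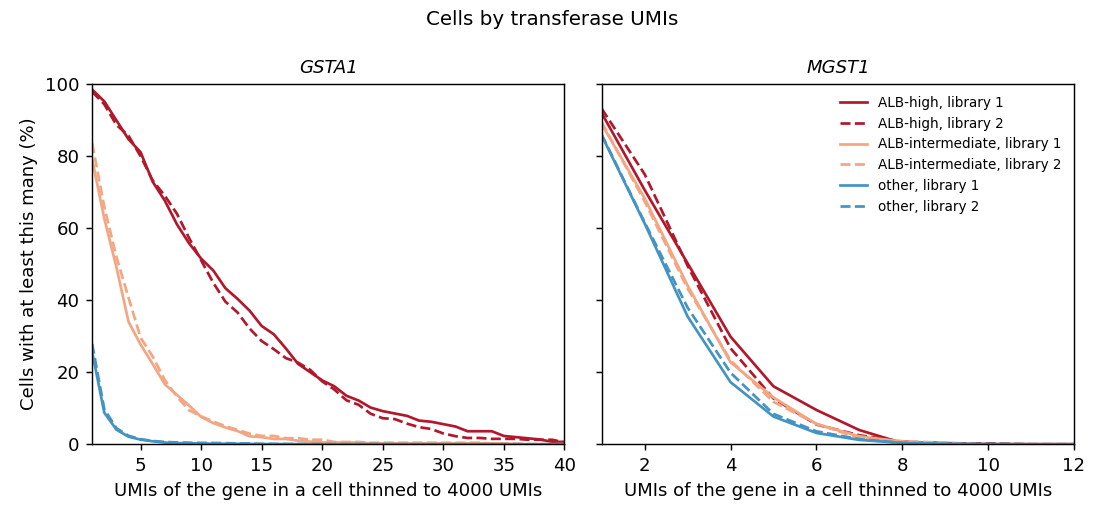
Share of cells (vertical axis, percent) with at least the number of UMIs on the horizontal axis, for GSTA1 and MGST1, in cells thinned to 4000 UMIs. Solid lines are library 1 and dashed lines library 2, in the colours of the 3 tiers. The GSTA1 curves of the tiers lie far apart, with medians of 10 and 10, 2 and 3, and 0 and 0 UMIs, whereas the MGST1 curves lie close together.

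The share of other cells with a GSTA1 UMI was near that in the mesenchymal-like cluster, taken here, without a test, as cells that should lack the gene. Only 4 of 12 mesenchymal markers were raised in that cluster. In other-tier cells of that cluster the share was 24.7% (exact 95% interval 21.6 to 28.0) and 28.0% (24.8 to 31.3), at median depths of 14370 and 8622 UMIs before thinning. Over all other cells the share was 25.6% and 27.8%, at median depths of 17348 and 10178 UMIs over the tier. The cells of the cluster are part of the tier, 728 and 747 of its 3676 and 3932 thinned cells. The shares are thus not independent, and neither expression nor its absence in single cells of the tier is read from them. The counts were not corrected for free RNA, and its part in these shares was not tested. The share differed between clusters. In other-tier cells of the hepatocyte-like cluster 3 it was 43.3% (35.0 to 51.9) and 55.3% (47.0 to 63.4), above the mesenchymal-like value in both libraries. At the low end, it was 13.0% (9.47 to 17.3) and 14.3% (10.8 to 18.5) in cluster 6. There 8 of 11 proliferation and 3 of 12 mesenchymal markers were raised. The mesenchymal-like cluster was thus not the lowest.

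GSTA1 was also set against other hepatocyte genes within each tier. GSTA1 UMIs per APOH UMI, a plasma glycoprotein gene, were 6.95 and 6.89 in ALB-high cells, 26.8 and 27.1 in ALB-intermediate cells, and 35.1 and 39.2 in other cells. Per TF UMI, the gene of transferrin, they were 2.57 and 2.64 in ALB-high cells, 38.9 and 32.1 in ALB-intermediate cells, and 32.9 and 34.4 in other cells. Per FGB UMI, a fibrinogen chain gene, they were 1.54 and 1.61 in ALB-high cells, 1.41 and 1.56 in ALB-intermediate cells, and 2.53 and 2.41 in other cells. The ratio to APOH and to TF in other cells was thus several times that in ALB-high cells, and the ratio to FGB moved far less. Among the 7 hepatocyte genes set against GSTA1, AHSG and ADH1B had 5 or fewer UMIs in some sums and gave no usable ratio there.

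Clusters made without any of the listed genes gave 10 groups of cells, of which 8 and 3 were hepatocyte-like, 1 and 4 cycling-like and 2 mesenchymal-like by their markers, and the others stayed unnamed. Raised were 16 and 15 of 17 hepatocyte markers in clusters 8 and 3, and 8 and 6 of 11 proliferation markers in clusters 1 and 4. In cluster 2 only 4 of 12 mesenchymal markers were raised. GSTA1 was highest in cluster 8, at 3127 and 2832 CPM, and next in cluster 3, at 1903 and 1883 CPM. Clusters 5 and 7 followed at 330 and 537 CPM and at 371 and 485 CPM, and these 2 did not differ beyond their spread. The cycling-like cluster 1 was at 194 and 200 CPM. Clusters 0, 4 and 2 lay between 123 and 163 CPM and overlapped, and cluster 6 was lowest, at 51.9 and 61.0 CPM. Cluster 9, of 10 and 22 cells, was at 276 and 136 CPM.

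The ALB tier ordered GSTA1 within clusters too. In cluster 3 it was 3191 and 2878 CPM in ALB-high cells, 1232 and 1137 CPM in ALB-intermediate cells, and 260 and 423 CPM in other cells. In the cycling-like cluster 1 it was 2337 and 1880 CPM in 19 and 22 ALB-high cells, 760 and 758 CPM in ALB-intermediate cells, and 82.9 and 95.8 CPM in other cells. Doublets were not removed, and their part in the values of cluster 1 was not tested. MGST1 in cluster 3 was nearly level, at 665 and 671 CPM in ALB-high cells, 630 and 627 CPM in ALB-intermediate cells, and 647 and 621 CPM in other cells. GSTO1 stood at 326 and 328 CPM in cluster 8, against 191 and 177 CPM in cluster 3 and 152 to 201 CPM in each remaining cluster. MGST3 was at 205 and 155 CPM in cluster 8 and at 244 and 258 CPM in cluster 3.

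**Figure D5:**
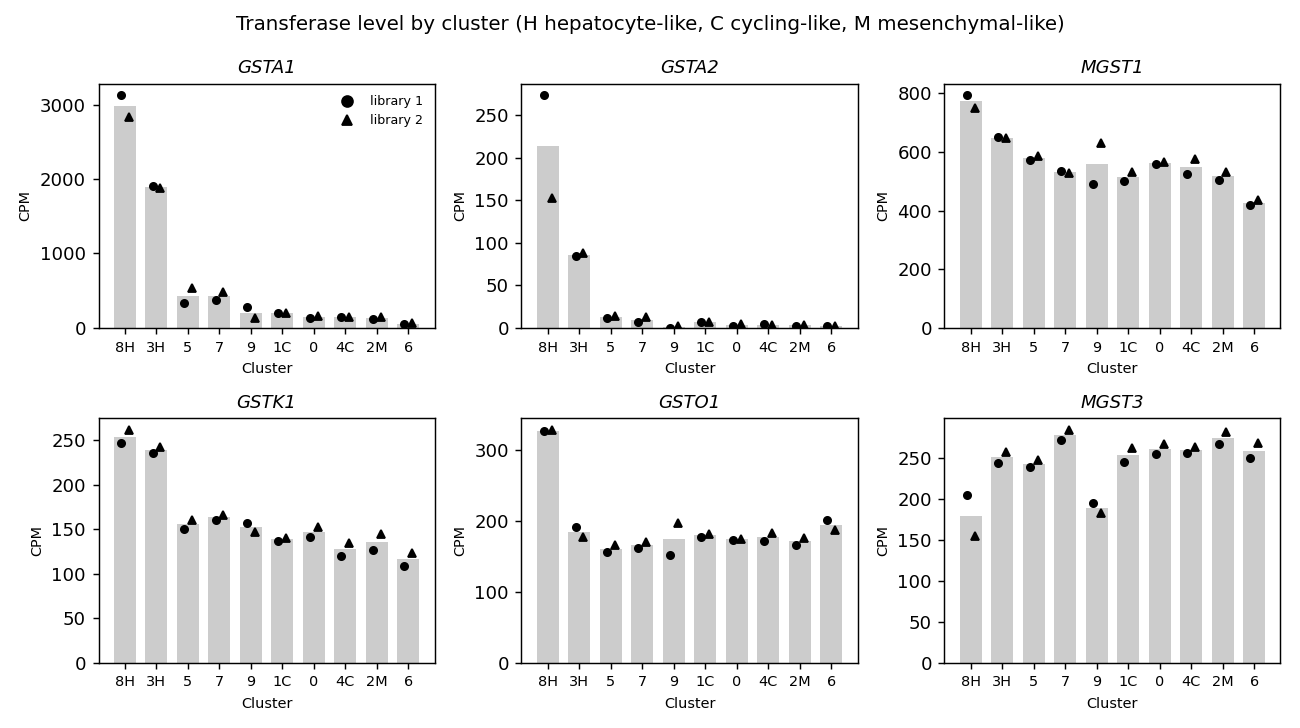
Level of 6 transferases (vertical axes, CPM from 0, a scale of its own per gene) in 10 clusters of cells, ordered by their mean GSTA1 level. Bars give the mean of 2 libraries, circles library 1 and triangles library 2. GSTA1 and GSTA2 stand out in clusters 8 and 3, GSTK1 in the same 2, and GSTO1 in cluster 8.

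Over 9 clusters in each of 2 libraries, the profile of GSTA1 was most like those of FGA, FGG, MPC2, FGB and HP, with Pearson correlations of 0.99, 0.98, 0.98, 0.98 and 0.98 of log2(CPM + 5). These 18 points share cells of 2 libraries, and 7195 genes of at least 20 CPM outside the clustering genes were candidates. Listed genes were kept out of the clustering, so FGA, FGG, FGB and HP stayed candidates, while the 2000 variable genes could not compete. The ranking therefore depends on this filter. FGA, FGG and FGB encode the 3 chains of fibrinogen and HP encodes haptoglobin, all secreted by hepatocytes. MPC2, a subunit of the mitochondrial pyruvate carrier, ranged from 133 to 379 CPM, whereas FGA ranged from 9.01 to 1927 CPM. The same search could not be run for GSTP1.

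Beyond the 9 genes, 17 further transferases and related proteins were listed, of which 15 were in the files and 6 had counts enough to test. In ALB-high against other cells 3 of these rose and 2 fell (median log2 fold change 0.32, against 0.01 over all genes). Over all genes 32.1% rose and 30.2% fell. GSTM4, a mu form, stood at 117 and 116 CPM in ALB-high cells, 109 and 109 CPM in ALB-intermediate cells, and 58.0 and 59.7 CPM in other cells. It rose by 1.15 on the log2 scale in ALB-high against other cells (SE 0.05, adjusted p = 1.3e-20). ALOX5AP, which hands arachidonate to leukotriene synthesis, fell by 1.19 (SE 0.29, adjusted p = 0.00058), on only 10 and 11 UMIs in ALB-high cells. GSTM1, another mu form, had 1 and 0 UMIs in ALB-high cells, 0 and 1 in ALB-intermediate cells, and 5 and 2 in other cells.

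Of 10 genes tested that supply glutathione, 2 rose and 4 fell in ALB-high against other cells (median -0.10), where 32.1% of all genes rose and 30.2% fell. MAT1A, the methionine adenosyltransferase of hepatocytes, rose by 3.53 (SE 0.10, adjusted p = 1.9e-26), and CTH, which makes cysteine from cystathionine, rose by 1.00 (SE 0.15, adjusted p = 2.8e-07). SLC7A11, the cystine importer, fell to 51.2 and 43.9 CPM in ALB-high cells and 61.3 and 72.0 CPM in ALB-intermediate cells, against 121 and 121 CPM in other cells (log2 fold change -1.18 in ALB-high against other cells, SE 0.07, adjusted p = 1.6e-17). Its partner chain SLC3A2 fell by 0.55 (SE 0.05, adjusted p = 1.7e-11). GCLM, the modifier subunit of the first enzyme of glutathione synthesis, was at 217 and 221 CPM in ALB-high cells, 348 and 331 CPM in ALB-intermediate cells, and 347 and 340 CPM in other cells, a fall of 0.49 in ALB-high against other cells (SE 0.05, adjusted p = 1.3e-11). GCLC, its catalytic subunit, did not pass the test, at -0.07 (SE 0.05, adjusted p = 0.24).

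Among genes listed for the redox use of glutathione, 9 of 14 rose and 3 fell in ALB-high against other cells (median 0.39). Most keep glutathione reduced or use it against peroxides and mixed disulfides, but GLO1, HAGH and ETHE1 do not. HAGH and ETHE1 were among those that rose. Over all genes 32.1% rose and 30.2% fell. GLRX, a glutaredoxin of the cytosol, stood at 247 and 237 CPM in ALB-high cells, 129 and 136 CPM in ALB-intermediate cells, and 76.8 and 79.4 CPM in other cells, a rise of 1.80 in ALB-high against other cells (SE 0.05, adjusted p = 7.8e-27). GPX4, the lipid hydroperoxide peroxidase, rose by 0.34 (SE 0.04, adjusted p = 8.9e-09). GSR, the glutathione reductase, was at 115 and 111 CPM in ALB-high cells, 165 and 154 CPM in ALB-intermediate cells, and 142 and 138 CPM in other cells. It fell by 0.14 in ALB-high against other cells (SE 0.05, adjusted p = 0.017) and rose by 0.26 in ALB-intermediate against other cells (SE 0.05, adjusted p = 2.8e-05). GPX8, a peroxidase of the endoplasmic reticulum, fell by 1.28 in ALB-high against other cells (SE 0.08, adjusted p = 6.8e-17).

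Genes that break glutathione down or act on its conjugates on the way to or from mercapturic acids had 7 of 10 rise and 2 fall in ALB-high against other cells (median 0.57). Over all genes 32.1% rose and 30.2% fell. ACY1, an aminoacylase of N-acetyl amino acids, stood at 106 and 113 CPM in ALB-high cells, 81.2 and 87.7 CPM in ALB-intermediate cells, and 36.7 and 39.1 CPM in other cells, a rise of 1.70 (SE 0.05, adjusted p = 7.1e-25). ANPEP, an aminopeptidase of the cell surface, rose by 0.90 (SE 0.04, adjusted p = 4.6e-19). CHAC1, a cytosolic enzyme that cleaves glutathione, fell by 1.45 (SE 0.34, adjusted p = 0.00034), on only 7 and 8 UMIs in ALB-high cells. The acetyltransferase NAT8 had 27 and 15 UMIs in ALB-high cells, 8 and 1 in ALB-intermediate cells, and 3 and 8 in other cells.

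Of 6 exporters tested 2 rose and 3 fell in ALB-high against other cells (median -0.21), beside 32.1% and 30.2% of all genes. ABCC2, the conjugate pump of the bile canaliculus, stood at 233 and 206 CPM in ALB-high cells, 168 and 148 CPM in ALB-intermediate cells, and 109 and 108 CPM in other cells, a rise of 1.19 (SE 0.05, adjusted p = 5.6e-21). ABCC3, a pump of the basolateral membrane, rose by 0.48 (SE 0.04, adjusted p = 1.6e-12). ABCC1, a pump found in many tissues, fell to 46.9 and 44.4 CPM in ALB-high cells, against 86.4 and 81.6 CPM in other cells (log2 fold change -0.71, SE 0.06, adjusted p = 2.3e-12). In ALB-intermediate cells ABCC1 stood at 80.3 and 78.4 CPM.

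NRF2, encoded by NFE2L2, is the transcription factor best known for switching on glutathione genes under oxidative stress. Of 13 genes tested, among them NFE2L2, its inhibitor KEAP1 and, as in the list above, SLC7A11 and GCLM, 5 rose and 6 fell in ALB-high against other cells (median -0.04), beside the same 32.1% and 30.2% of all genes. AKR1B10, an aldo-keto reductase, stood at 481 and 320 CPM in ALB-high cells, 359 and 254 CPM in ALB-intermediate cells, and 127 and 143 CPM in other cells, a rise of 1.72 (SE 0.09, adjusted p = 4.6e-19) with the libraries far apart in the first 2 tiers. AKR1C1, another aldo-keto reductase, rose by 0.93 (SE 0.04, adjusted p = 4.2e-20). TXN, thioredoxin, fell by 0.69 (SE 0.03, adjusted p = 9.2e-19), and TXNRD1, thioredoxin reductase, fell by 0.44 (SE 0.04, adjusted p = 2.6e-12). PRDX1, a peroxiredoxin, was called higher at 0.15 (SE 0.04, adjusted p = 0.00046), but on the scale of library totals it stood at -0.01. Its level was 937 and 952 CPM in ALB-high cells, 943 and 934 CPM in ALB-intermediate cells, and 937 and 970 CPM in other cells.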

How the data were processed

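The authors deposited UMI counts per barcode and gene, made with Cell Ranger 7.0.0 per the file headers; the submitters' processing notes also name STAR and GRCh38, while for the annotation release and intronic reads nothing is stated in these sources. Cells needed 500 or more genes and 1000 or more UMIs, with no more than 25% of UMIs from mitochondrial genes, which left 4454 and 4894 cells at medians of 17568 and 10407 UMIs. Scrublet called 3 and 0 doublets and had not worked, so none were removed.

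Raw counts were summed per library and ALB tier (6 sums). They were tested with edgeR 4.0.16's quasi-likelihood test (TMM, filterByExpr, library as a block, 2 residual degrees of freedom) over 15814 genes without ALB, with Benjamini-Hochberg adjustment and a threshold of 0.05. The SE is the size of the log2 fold change over the square root of F. Intervals of shares are exact Clopper-Pearson.

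Clusters came from 2000 variable genes outside the lists, with mitochondrial and ribosomal protein genes left out (30 components, 15 neighbours, Leiden resolution 0.5, scanpy 1.11.5). A marker counted as raised at 5 CPM and 2-fold over the median of the other clusters. Names were rebuilt from such markers by a rule set after the clusters had been seen.

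Named are the 9 members, genes of the lists, counts first, with the 4 most abundant called genes in each direction of a list taken as candidates, and the 5 genes most like GSTA1. The members, lists and tests were chosen with earlier results of these data known. Promoter windows and gene spans came from RefSeq (GRCh38.p14) and GENCODE 29 by symbol and gene ID; MGST2 has no promoter entry. Alternatives were DESeq2 1.42.0, other scalings, filters and ALB limits, thinning, and leaving out cells, clusters or a library.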

Additional observations from a re-analysis of the deposited data

How the results depend on the processing

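Of 264 refits of a member's log2 fold change under other settings, 256 kept the direction and the side of the threshold; 5 lost their call, all of them GSTA4, 2 gained one (MGST2 at 0.16 with ALB limits of 25 and 2.5, and MGST3 at -0.15 on library totals, both in ALB-high against ALB-intermediate cells) and 1 reversed (MGST3 at -0.14 on library totals in ALB-high against other cells). Without the replicate block 5007 genes were called higher and 4667 lower in ALB-high against other cells, and no member changed its call. Counts of called genes moved by more than 1.5 times as follows. In ALB-high against other cells, thinning to 4000 UMIs gave 3074 higher and 2871 lower of 12352 tested. In ALB-intermediate against other cells, DESeq2 gave 2094 and 1750, thinning gave 2090 and 1881, and leaving out proliferation and mesenchymal clusters gave 2254 lower. In ALB-high against ALB-intermediate cells, DESeq2 gave 1668 and 1319, thinning gave 1265 and 929, and library totals gave 3677 lower. The cause was not tested. The alpha share of the 9 members was 68.9%, 51.7% and 10.5% in the 3 tiers with ALB limits of 100 and 10, and 63.9% in ALB-high and 30.6% in ALB-intermediate cells with limits of 25 and 2.5. It was 65.7% in ALB-high cells at a mitochondrial limit of 15%, and 42.8% in ALB-intermediate and 12.2% in other cells without the proliferation and mesenchymal clusters. The alpha share of alpha plus pi was fixed at 100% by the count of 0 for GSTP1, so the alternatives say nothing about it. Leaving out either library gave values with no test, since 1 library leaves no residual degrees of freedom: alpha shares of 66.1% to 67.6%, 40.4% to 41.8% and 9.21% to 10.2%. Of 48 log2 fold changes of members from a single library, 16 lay away from the main fit. Their distance was at least the SE of the fit and the SD of the 2 libraries. Single-library values were differences of log2 CPM with a prior count of 2, scaled by TMM over all genes, ALB among them. The main fit used filtered genes without ALB. The part of this unlike method in the distances was not tested. Library totals and the share of the 9 members were added after seeing the data. Few UMIs limit the precision of GSTA4, with 70 and 43 in ALB-high cells.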

Other observations

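Further members were also set against the same candidate genes by their profiles over the 9 clusters and 2 libraries, a search outside the rule for naming genes. MGST1 was most like MT-CYB and MT-CO2, 2 transcripts of the mitochondrial genome, with Pearson correlations of 0.97 and 0.96 over 18 points. Mitochondrial genes had been kept out of the clustering and so stayed candidates, unlike the variable genes. MT-CYB ranged from 5519 to 12083 CPM over these points. The mitochondrial share of UMIs moved with the ALB tiers in the same way, and its part in the MGST1 result was measured only by the limit of 15%, under which the log2 fold change was 0.51 in ALB-high against other cells. Among the 5 profiles nearest to GSTK1 was that of GSTA1, at 0.97. GSTA2 in cluster 8 parted between libraries, at 273 and 153 CPM in 39 and 45 cells, and so did NQO1 in ALB-high cells, at 10.1 and 1.91 CPM.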
